A study of Mus musculus with 4 samples.

Results

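The mitosis and chromosome segregation genes described here are 50 genes chosen by symbol, all 50 of which are among the 13102 genes of the deposited tables. They encode the cyclins and kinases of mitotic entry, the chromosomal passenger complex, the spindle checkpoint, the anaphase machinery, centromere and kinetochore proteins, spindle motors, cytokinesis factors and condensin. The cells were primary epidermal keratinocytes, which build the outer layer of the skin, from neonatal C57BL/6 mice, kept 48 h in culture before their RNA was sequenced. There were 4 groups with 1 library each. Il17rc knockout (KO) cells, Il17rd KO cells and wild-type (WT) cells were each given interleukin-17A (IL-17A), an inflammatory cytokine, at 100 ng/mL for 8 h, and further WT cells were left untreated. Il17rc encodes the chain that pairs with IL-17RA in the receptor for IL-17A, and Il17rd encodes another member of that receptor family. The labels describe the mice as KO animals and name no Cre, promoter or clone. The number of animals behind each culture was not given in the sources used here. Untreated cells of either KO were not analysed here, so a difference between genotypes at rest and a difference in the response to IL-17A cannot be told apart.

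As background, a dividing cell copies its DNA in S phase and then enters mitosis when cyclin B bound to the kinase Cdk1 becomes active. Chromosomes condense, kinetochores attach them to the spindle, and the spindle checkpoint holds back the anaphase-promoting complex until each chromosome is attached. That complex then marks cyclin B and securin for destruction, sister chromatids part, and the cell is cleaved in cytokinesis. Transcripts of these genes are made mostly in late S phase, G2 and M, and in the epidermis they belong to the dividing basal layer. RNA from a whole culture does not tell more dividing cells from more of these transcripts per dividing cell, and the same holds in the other direction for fewer cells of a type and less RNA per cell.

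Total counts over the deposited genes were 19711866 to 19904695 per library, and the 50 genes had 76 to 11189 counts per library. The targeted genes were checked first. Il17rd had 150 counts in IL-17A Il17rc KO, 5 in IL-17A Il17rd KO, 265 in IL-17A WT and 252 in untreated WT. Il17rc still had 439 counts in IL-17A Il17rc KO, against 1718 in IL-17A Il17rd KO, 1152 in IL-17A WT and 2729 in untreated WT. These are counts over the whole gene. With the deleted part of Il17rc not given in the sources used here, counts outside that part cannot be separated from counts within it. The libraries also differed in sex-linked transcripts. The Y-linked gene Ddx3y had 749 counts in IL-17A Il17rc KO, 2 in IL-17A Il17rd KO, 233 in IL-17A WT and 654 in untreated WT. Xist, the RNA of the inactive X chromosome, had 2668, 8513, 4750 and 2420 counts in the same order of groups. The part of this imbalance in the results was not tested.

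The level of a gene is its count over the library size, written as CPM, with library sizes scaled by TMM, which centres most genes. A fold is the ratio of 2 such levels, and its interval is an exact 95% interval from the counts, which covers counting error only. A gene is called higher or lower here when its fold is 2 or more and the interval excludes 1. This rule was applied to 12934 genes whose mean over the libraries was 1 CPM or more, which hold all 50 mitotic genes. With 1 library per group no p-value was computed, and a call describes those libraries and has no replicate check. The 50 genes are not replicates of a condition, since they share the same cells and libraries.

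Promoter sequences are shown for the 4 genes with the firmest fold of IL-17A WT over untreated WT and for Cdc20, which had the largest fold of IL-17A Il17rc KO over IL-17A WT. They are taken from RefSeq on GRCm38.p6, and each gives the 250 bases before the annotated start on the gene's own strand, 5′ to 3′. Capitals mark the letters of a CCAAT box (CCAAT, or ATTGG on the other strand) and of the cell cycle genes homology region, called CHR (TTTGAA or TTCGAA, or TTCAAA on the other strand). CCAAT boxes are bound by NF-Y, and CHR elements by the MuvB complexes that repress or activate G2 and M genes. Kif23 encodes a cytokinesis kinesin at chr9:61946800-61947049 on the minus strand, Birc5 the passenger protein survivin at chr11:117848987-117849236 on the plus strand, and Cdk1 the mitotic kinase at chr10:69352913-69353162 on the minus strand. Ube2c, the ubiquitin-conjugating enzyme of the anaphase-promoting complex, is shown at chr2:164769679-164769928 on the plus strand, and Cdc20, an activator of that complex, at chr4:118437344-118437593 on the minus strand.
Kif23: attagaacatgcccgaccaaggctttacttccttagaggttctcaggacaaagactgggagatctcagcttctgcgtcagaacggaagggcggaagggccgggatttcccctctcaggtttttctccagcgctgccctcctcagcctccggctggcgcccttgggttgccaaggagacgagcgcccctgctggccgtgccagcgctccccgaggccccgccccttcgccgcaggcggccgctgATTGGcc
Birc5: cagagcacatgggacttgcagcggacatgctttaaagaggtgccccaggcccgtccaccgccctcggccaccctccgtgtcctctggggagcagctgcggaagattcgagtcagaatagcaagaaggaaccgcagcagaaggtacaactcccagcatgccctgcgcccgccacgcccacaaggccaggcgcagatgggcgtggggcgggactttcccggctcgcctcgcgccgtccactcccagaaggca
Cdk1: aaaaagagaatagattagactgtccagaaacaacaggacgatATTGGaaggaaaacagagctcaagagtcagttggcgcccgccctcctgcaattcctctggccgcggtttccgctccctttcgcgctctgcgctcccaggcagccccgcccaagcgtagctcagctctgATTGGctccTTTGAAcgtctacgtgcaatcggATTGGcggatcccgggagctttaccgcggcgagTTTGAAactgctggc
Ube2c: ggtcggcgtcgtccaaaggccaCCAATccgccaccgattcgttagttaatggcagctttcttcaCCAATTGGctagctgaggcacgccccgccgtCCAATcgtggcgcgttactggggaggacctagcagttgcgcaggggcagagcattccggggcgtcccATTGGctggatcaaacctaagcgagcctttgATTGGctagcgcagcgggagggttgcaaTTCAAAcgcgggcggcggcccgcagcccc
Cdc20: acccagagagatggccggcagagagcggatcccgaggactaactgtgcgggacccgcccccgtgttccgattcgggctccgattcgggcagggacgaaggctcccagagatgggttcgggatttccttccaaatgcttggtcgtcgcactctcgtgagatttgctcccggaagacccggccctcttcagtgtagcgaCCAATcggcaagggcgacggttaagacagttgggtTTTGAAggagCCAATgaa
The Cdk1 stretch holds 2 matches to the CHR letters, the Ube2c and Cdc20 stretches hold 1 each, and the Birc5 stretch holds neither motif. The CHR letters of Kif23 lie after its start, outside the stretch shown.

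The motif search used windows of 300 bases, from 250 before to 50 after each start. RefSeq windows were matched for 42 of the 50 genes, giving 45 windows. Spc24, Smc4, Incenp, Kif20a, Cdc25c, Tpx2, Aurkb and Ccna2 are the other 8. CHR letters were in 36 of the 45 windows (80%), against 13.8% of the 12174 windows matched to genes of the tables and 19.2% of all 32851 windows. CCAAT boxes were in 77.8% of the windows of the mitotic genes, 37.6% of those of genes in the tables and 37.4% of all. Windows with both motifs anywhere in their 300 bases were 32 of 45 (71.1%), against 5.72% and 7.52%, and spacing was not measured. E2F-like letters (GCGCGAA or GCGGGAA, or TTCGCGC or TTCCCGC on the other strand) were in 6.67%, 11% and 6% of these windows. The genes whose windows held no CHR letters were Ccnb1, Nek2, Birc5, Mad2l1, Pttg1, Cenpe, Nuf2, Nusap1 and Ncaph. The motifs can overlap each other, and a match is a description of these letters and not a binding site.

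Nearly all of the 50 transcripts stood in the same order. Summed over the 50 genes, the level was 6903 CPM in IL-17A Il17rc KO, 3899.8 CPM in IL-17A Il17rd KO, 3111.1 CPM in IL-17A WT and 1210.4 CPM in untreated WT. Untreated WT was the lowest library for 49 of the 50 genes, and it was the lowest for 35.7% of all genes tested. IL-17A Il17rc KO was the highest for 49 of 50, against 26.7% of all genes. In 44 genes (88%) both KO libraries stood above IL-17A WT and IL-17A WT above untreated WT, which held for 10.3% of all genes, and in those 44 Il17rc KO was the higher KO. Cdk1, Aurka, Birc5, Incenp and Bub3 differed from this order only in that IL-17A Il17rd KO stood below IL-17A WT. Pttg1, the gene of securin, had an order of its own. For 35 genes every step between neighbouring libraries had an interval that excluded 1. For 13 genes the step between IL-17A Il17rd KO and IL-17A WT did not, and for Ccnb1 and Pttg1 the step between the highest pair did not. The highest library was 1.70 to 9.17 times the lowest, with a median of 5.93.

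**Figure D1:**
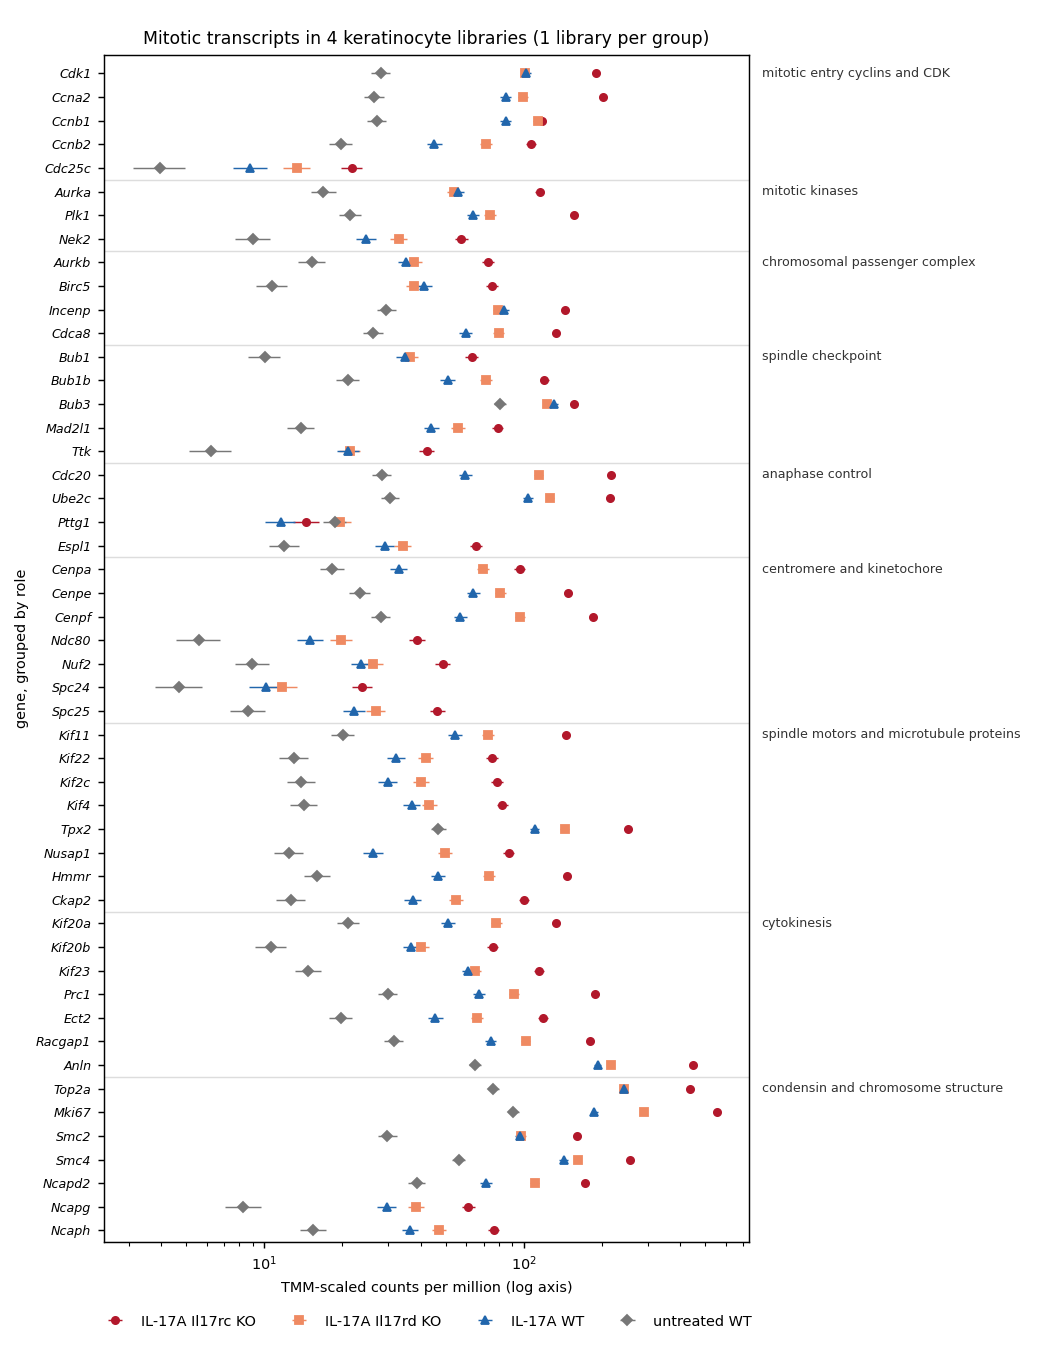
Level of each of the 50 mitotic genes in TMM-scaled CPM on a log axis, with 1 point per library and bars for the exact 95% Poisson interval, grouped by role. In 44 genes the points run from untreated WT at the left through IL-17A WT and IL-17A Il17rd KO to IL-17A Il17rc KO at the right, and Pttg1 is the gene in which untreated WT is not the lowest.

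Per length, using the deposited FPKM, Cdc20 was the highest of the 50 at 116 FPKM in IL-17A Il17rc KO, 61.0 FPKM in IL-17A Il17rd KO and 15.2 FPKM in untreated WT, and Ube2c was the highest in IL-17A WT at 39.9 FPKM. The median over the 50 genes was 22.6 FPKM in IL-17A Il17rc KO, 12.5 FPKM in IL-17A Il17rd KO, 9.54 FPKM in IL-17A WT and 3.78 FPKM in untreated WT. The lowest gene was Pttg1 at 7.24 FPKM in IL-17A Il17rc KO, Nuf2 at 4.14 FPKM in IL-17A Il17rd KO, Cenpf at 3.69 FPKM in IL-17A WT and Ncapg at 1.17 FPKM in untreated WT.

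In WT cells, 46 of the 50 genes were called higher with IL-17A and 0 were called lower, against 8.97% of all genes tested called higher and 10.7% called lower. The median log2 ratio was 1.36, from -0.69 to 2.04, and the median over all genes was 0. Between the KO and WT cells given IL-17A, 38 of 50 genes were called higher in Il17rc KO and 0 lower, with 6.22% of all genes called higher and 4.84% lower. There the median log2 ratio was 1.20 (0.27 to 1.87), and all 50 intervals lay above 1. In Il17rd KO 1 of 50 genes, Cenpa, was called higher than in IL-17A WT and 0 lower, with 6.27% of all genes called higher and 3.73% lower. Its median log2 ratio was 0.37 (-0.13 to 1.08). For Il17rd KO 45 ratios were above 1, and the interval lay above 1 for 36 genes, below 1 for Bub3 and on both sides of 1 for 13. Il17rc KO set directly against Il17rd KO gave 7 of 50 genes called higher and 0 lower, with 1.49% of all genes called higher and 2.75% lower, and a median log2 ratio of 0.85 (-0.43 to 1.10). The counts for the last 2 comparisons rest on genes near the 2-fold line. With library totals in place of TMM sizes, 3 genes were called in Il17rd KO against IL-17A WT and 3 in Il17rc KO against Il17rd KO. Under that setting 7.05% and 1.26% of all genes were called higher.

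Of the 50 genes, 36 were called higher both in IL-17A WT against untreated WT and in IL-17A Il17rc KO against IL-17A WT, 10 in the first comparison only, 2 (Cenpa and Ncapd2) in the second only, and 2 (Bub3 and Pttg1) in neither. With 46 and 38 of 50 called, at least 34 genes had to fall in both, and the comparisons share the IL-17A WT library, so nothing is read from this overlap. The 12 genes not called in IL-17A Il17rc KO against IL-17A WT were Cdk1, Ccnb1, Birc5, Incenp, Bub1, Bub3, Mad2l1, Pttg1, Kif23, Top2a, Smc2 and Smc4. Against untreated WT, 48 of 50 genes were called higher in IL-17A Il17rc KO and 0 lower, with 7.27% of all genes called higher and 7% lower. In IL-17A Il17rd KO, again against untreated WT, 48 of 50 were called higher and 0 lower, with 5.36% of all genes called higher and 3.35% lower. The median log2 ratios were 2.56 for Il17rc KO and 1.75 for Il17rd KO. Bub3 and Pttg1 were the other 2 genes in both.

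**Figure D2:**
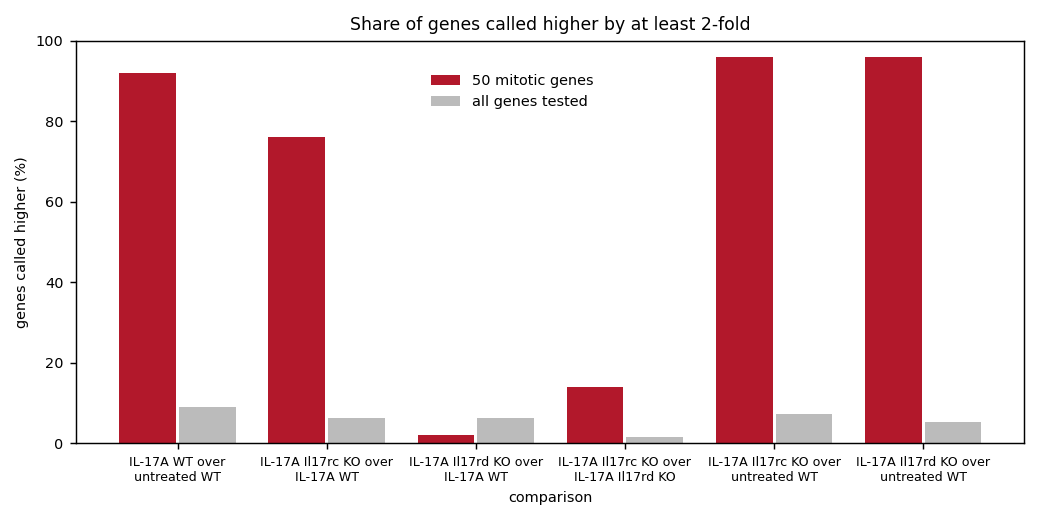
Percent of genes called higher by at least 2-fold in 6 comparisons, for the 50 mitotic genes (left bar of each pair) and for all 12934 genes tested (right bar), with 1 library per group and so no error bars. The mitotic share is 92%, 76%, 2%, 14%, 96% and 96% from left to right, beside 8.97%, 6.22%, 6.27%, 1.49%, 7.27% and 5.36% of all genes.

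Among the 5 genes of mitotic entry, all called higher with IL-17A in WT cells, Cdk1 had the largest fold in that comparison. Its level was 190.3 CPM in IL-17A Il17rc KO, 101.5 CPM in IL-17A Il17rd KO, 101.6 CPM in IL-17A WT and 28.1 CPM in untreated WT. IL-17A WT was 3.61-fold above untreated WT (interval 3.28 to 3.98), and Il17rd KO could not be told apart from IL-17A WT within counting error, at a fold of 0.999 (0.939 to 1.06). Ccnb2, a B-type cyclin that binds Cdk1, showed a graded order instead. Its level was 106.5 CPM in IL-17A Il17rc KO, 71.5 CPM in IL-17A Il17rd KO, 45.2 CPM in IL-17A WT and 19.7 CPM in untreated WT. Cdc25c, a phosphatase that activates Cdk1, had the same graded order, with 21.7 CPM in IL-17A Il17rc KO, 13.3 CPM in IL-17A Il17rd KO, 8.84 CPM in IL-17A WT and 3.96 CPM in untreated WT. Ccna2 (cyclin A) was called higher in IL-17A Il17rc KO than in IL-17A Il17rd KO, at 2.03-fold. Ccnb1 (cyclin B1) was the exception among the entry genes. It had 117.3 CPM in IL-17A Il17rc KO and 113.0 CPM in IL-17A Il17rd KO, a fold of 1.04 (0.979 to 1.10), against 85.3 CPM in IL-17A WT and 27.1 CPM in untreated WT. Processed pseudogenes match 51.7% to 51.9% of Ccnb1, so its counts may be shared with those copies and its value is uncertain.

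The mitotic kinases Aurka, Plk1 and Nek2, which act at centrosomes and in spindle assembly, were all called higher in IL-17A WT against untreated WT and in IL-17A Il17rc KO against IL-17A WT. Aurka had 115.2 CPM in IL-17A Il17rc KO, 53.8 CPM in IL-17A Il17rd KO, 55.6 CPM in IL-17A WT and 16.9 CPM in untreated WT. Its fold of Il17rc KO over Il17rd KO, 2.14 (1.99 to 2.30), was the largest of the 50 genes, and its fold of Il17rd KO over IL-17A WT was 0.967 (0.888 to 1.05). Plk1 had 156.9 CPM in IL-17A Il17rc KO, 74.1 CPM in IL-17A Il17rd KO, 63.7 CPM in IL-17A WT and 21.3 CPM in untreated WT. Nek2 had 57.4 CPM in IL-17A Il17rc KO, 32.9 CPM in IL-17A Il17rd KO, 24.7 CPM in IL-17A WT and 9.02 CPM in untreated WT, and its 2 KO libraries differed by 1.74-fold.

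In the chromosomal passenger complex, which corrects faulty attachments and works in cytokinesis, Birc5 had 75.3 CPM in IL-17A Il17rc KO, 37.7 CPM in IL-17A Il17rd KO, 41.2 CPM in IL-17A WT and 10.7 CPM in untreated WT. Birc5 was 3.86-fold above untreated WT in IL-17A WT (3.30 to 4.52), the second largest fold of the 50, and its ratio of Il17rd KO to IL-17A WT was the lowest of the 50 at 0.915 (0.828 to 1.01). Cdca8, the borealin subunit, had 133.1 CPM in IL-17A Il17rc KO, 80.2 CPM in IL-17A Il17rd KO, 59.7 CPM in IL-17A WT and 26.2 CPM in untreated WT. All 4 genes of the complex were called higher with IL-17A in WT cells. Aurkb, the kinase of the complex, and Cdca8 were called higher in IL-17A Il17rc KO than in IL-17A WT, and the scaffold Incenp and Birc5 were not, at 1.72-fold and 1.83-fold.

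Bub1, Bub1b, Mad2l1 and Ttk of the spindle checkpoint were called higher with IL-17A in WT cells, and Bub3 was not. Bub1, a checkpoint kinase, had 63.0 CPM in IL-17A Il17rc KO, 36.6 CPM in IL-17A Il17rd KO, 34.8 CPM in IL-17A WT and 10.0 CPM in untreated WT. Bub1b, which encodes BubR1, had 119.9 CPM in IL-17A Il17rc KO, 71.7 CPM in IL-17A Il17rd KO, 50.8 CPM in IL-17A WT and 20.9 CPM in untreated WT. Bub3, the partner of both, stood apart from them with a narrow spread over the libraries. It had 156.6 CPM in IL-17A Il17rc KO, 123.1 CPM in IL-17A Il17rd KO, 130.2 CPM in IL-17A WT and 81.1 CPM in untreated WT, and its folds were 1.61 for IL-17A WT over untreated WT and 1.20 for IL-17A Il17rc KO over IL-17A WT.

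The anaphase genes had the widest range of the 9 roles in 2 comparisons. Their log2 ratios were -0.69 to 1.76 for IL-17A WT over untreated WT and 0.33 to 1.87 for IL-17A Il17rc KO over IL-17A WT. Pttg1 alone set the low end of both ranges. Without Pttg1 the first range was 1.06 to 1.76, beside 1.17 to 2.04 for the cytokinesis genes. Cdc20 had 217.9 CPM in IL-17A Il17rc KO, 114.1 CPM in IL-17A Il17rd KO, 59.5 CPM in IL-17A WT and 28.4 CPM in untreated WT. Its fold of Il17rc KO over IL-17A WT, 3.66 (3.43 to 3.91), was the largest of the 50, while its fold of IL-17A WT over untreated WT, 2.10 (1.89 to 2.32), was among the lower ones. Ube2c showed the reverse balance, with 214.4 CPM in IL-17A Il17rc KO, 126.3 CPM in IL-17A Il17rd KO, 103.9 CPM in IL-17A WT and 30.5 CPM in untreated WT. Its folds were 3.40 for IL-17A WT over untreated WT and 2.06 for Il17rc KO over IL-17A WT. Both folds share the IL-17A WT library, where an error in a count moves them in opposite directions, so nothing is read from this contrast. Ube2c overlaps the troponin gene Tnnc2, and 21 of the 50 genes overlap a gene on the opposite strand, so reads of such pairs cannot be told apart without a strand setting. Espl1, the protease separase that cuts cohesin, was called higher in IL-17A WT and again in IL-17A Il17rc KO, at 2.44-fold and 2.26-fold.

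Pttg1, the inhibitor of separase, had 14.5 CPM in IL-17A Il17rc KO, 19.6 CPM in IL-17A Il17rd KO, 11.5 CPM in IL-17A WT and 18.7 CPM in untreated WT. It was the only one of the 50 genes lower with IL-17A in WT cells, by 1.62-fold (1.37 to 1.92). It was also the only one lower in Il17rc KO than in Il17rd KO, by 1.35-fold (1.16 to 1.58). Il17rd KO and untreated WT could not be told apart within counting error, at a fold of 1.05 (0.909 to 1.21). Neither of the differences reached the 2-fold line.

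Centromere and kinetochore genes were called higher in IL-17A Il17rc KO than in IL-17A WT in 7 of 7. Cenpa, the histone H3 variant that marks centromeres, had 96.3 CPM in IL-17A Il17rc KO, 69.6 CPM in IL-17A Il17rd KO, 32.9 CPM in IL-17A WT and 18.2 CPM in untreated WT. Its fold of Il17rd KO over IL-17A WT was 2.12 (1.93 to 2.33), and its fold of IL-17A WT over untreated WT was 1.81 (1.58 to 2.06). Short annotated repeat copies match a small stretch of Cenpa, so a few of its reads may be shared. Cenpf, a kinetochore protein of G2 and M, had 184.2 CPM in IL-17A Il17rc KO, 96.8 CPM in IL-17A Il17rd KO, 57.0 CPM in IL-17A WT and 28.1 CPM in untreated WT. Cenpe, a kinetochore motor, had 147.8 CPM in IL-17A Il17rc KO, 81.3 CPM in IL-17A Il17rd KO, 64.0 CPM in IL-17A WT and 23.3 CPM in untreated WT. Ndc80, Nuf2, Spc24 and Spc25, which form the microtubule-binding Ndc80 complex, moved in a narrow band, at 2.16-fold to 2.69-fold for IL-17A WT over untreated WT and 2.06-fold to 2.59-fold for IL-17A Il17rc KO over IL-17A WT.

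All 8 genes of spindle motors and microtubule proteins were called higher with IL-17A in WT cells, and all 8 in IL-17A Il17rc KO against IL-17A WT. Nusap1, a spindle-associated protein, had 87.4 CPM in IL-17A Il17rc KO, 49.8 CPM in IL-17A Il17rd KO, 26.3 CPM in IL-17A WT and 12.4 CPM in untreated WT. Ckap2, a microtubule-binding protein, had 99.9 CPM in IL-17A Il17rc KO, 54.8 CPM in IL-17A Il17rd KO, 37.2 CPM in IL-17A WT and 12.6 CPM in untreated WT. Hmmr, a spindle protein that also binds hyaluronan, spanned the widest range of the 50 genes. It had 146.9 CPM in IL-17A Il17rc KO, 73.4 CPM in IL-17A Il17rd KO, 46.7 CPM in IL-17A WT and 16.0 CPM in untreated WT. The kinesins Kif11, Kif22, Kif2c and Kif4, with the spindle assembly factor Tpx2, had folds of 2.15 to 2.70 for IL-17A WT over untreated WT and 2.23 to 2.69 for IL-17A Il17rc KO over IL-17A WT.

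All 7 cytokinesis genes were called higher with IL-17A in WT cells, and 6 of the 7, without Kif23, in IL-17A Il17rc KO against IL-17A WT. Kif23 had 114.4 CPM in IL-17A Il17rc KO, 65.0 CPM in IL-17A Il17rd KO, 61.0 CPM in IL-17A WT and 14.8 CPM in untreated WT. Its fold of IL-17A WT over untreated WT, 4.13 (3.63 to 4.72), was the largest of the 50. Prc1, which bundles the central spindle, had 188.2 CPM in IL-17A Il17rc KO, 91.8 CPM in IL-17A Il17rd KO, 67.4 CPM in IL-17A WT and 29.8 CPM in untreated WT. Kif20a, a central spindle kinesin, had 133.1 CPM in IL-17A Il17rc KO, 78.4 CPM in IL-17A Il17rd KO, 51.1 CPM in IL-17A WT and 20.97 CPM in untreated WT. Anln, the scaffold protein anillin of the contractile ring, was 2.07-fold higher in Il17rc KO than in Il17rd KO, and Prc1 2.05-fold.

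Among condensin and chromosome structure genes, Mki67, the gene of the proliferation marker Ki-67, had 558.0 CPM in IL-17A Il17rc KO, 291.8 CPM in IL-17A Il17rd KO, 187.4 CPM in IL-17A WT and 91.3 CPM in untreated WT. Mki67 was 2.98-fold higher in IL-17A Il17rc KO than in IL-17A WT (2.87 to 3.09). Top2a, which untangles DNA, had 437.3 CPM in IL-17A Il17rc KO, 243.4 CPM in IL-17A Il17rd KO, 243.3 CPM in IL-17A WT and 76.4 CPM in untreated WT, so Il17rd KO and IL-17A WT stood level. Ncapg, a condensin subunit, had 61.1 CPM in IL-17A Il17rc KO, 38.4 CPM in IL-17A Il17rd KO, 29.6 CPM in IL-17A WT and 8.29 CPM in untreated WT. Ncapd2, another condensin subunit, had 172.2 CPM in IL-17A Il17rc KO, 110.1 CPM in IL-17A Il17rd KO, 71.5 CPM in IL-17A WT and 38.7 CPM in untreated WT. The core condensin ATPases Smc2 and Smc4 were not called in IL-17A Il17rc KO against IL-17A WT, at 1.66-fold and 1.80-fold.

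**Figure D3:**
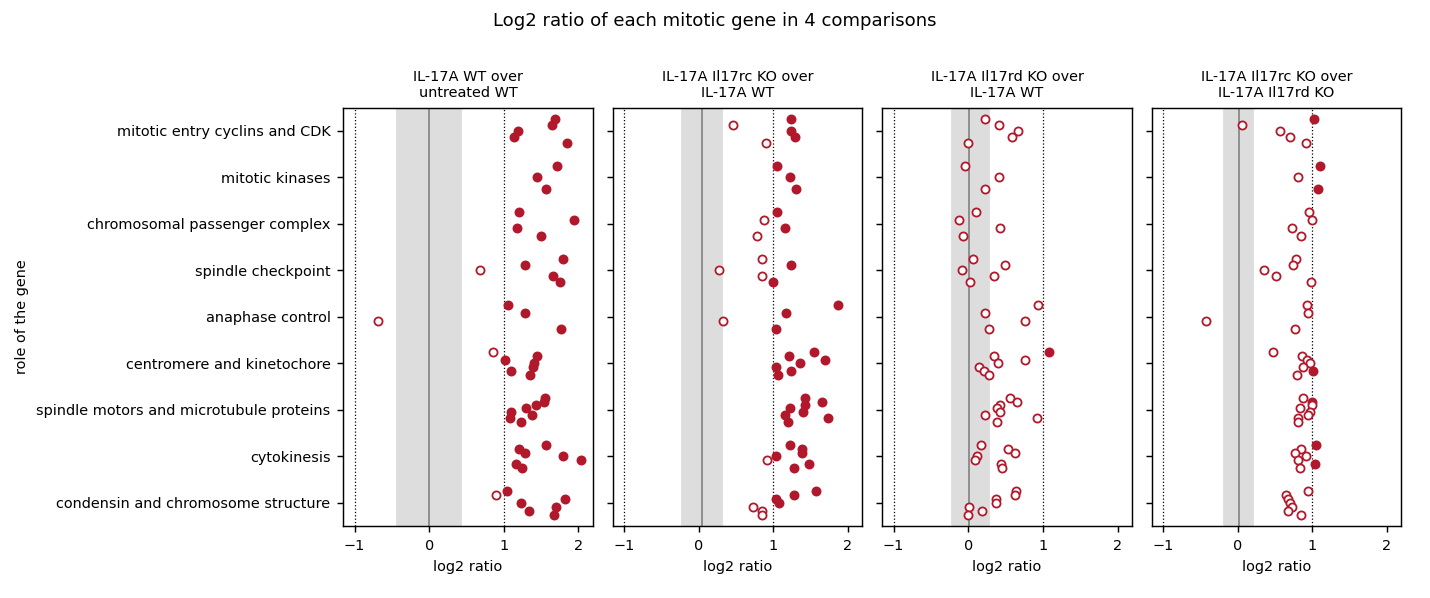
Log2 ratio of each of the 50 genes in 4 comparisons, by role, with filled points for genes called at 2-fold or more, dotted lines at 2-fold, and the grey band and line for the quartiles and the median of all genes tested. The points lie mostly past 2-fold in the first 2 panels, near the grey band in the panel of Il17rd KO over IL-17A WT, and just short of 2-fold in the panel of Il17rc KO over Il17rd KO.

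In IL-17A Il17rd KO the genes with a fold of 1.5 or more over IL-17A WT were 11, namely Ccnb2, Cdc25c, Cdc20, Pttg1, Cenpa, Cenpf, Nusap1, Hmmr, Kif20a, Mki67 and Ncapd2. The interval excluded 1 for each of them. By that rule 12.1% of all genes tested were higher, and 20.4% differed in either direction. Cenpa, Cdc20 and Nusap1 led them at 2.12-fold, 1.92-fold and 1.89-fold. The same 3 genes had folds of 2.93, 3.66 and 3.32 in IL-17A Il17rc KO over IL-17A WT, and both comparisons share the IL-17A WT library.

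The other genes of cell division were described from lists. Of 77 further mitotic genes, 55 were called higher with IL-17A in WT cells and 0 lower, and 30 were called higher in IL-17A Il17rc KO than in IL-17A WT and 0 lower. In Il17rd KO over IL-17A WT the count was 2 and 0, for Cenpp and the phosphatase gene Cdc25b, both at a log2 ratio of 1.13. In Il17rc KO over Il17rd KO it was 7 and 0. The median log2 ratios were 1.37, 0.83, 0.16 and 0.72 in these comparisons. The genes called higher were 71.4%, 39%, 2.6% and 9.09% of the 77. Of all genes tested, 8.97%, 6.22%, 6.27% and 1.49% were called higher in the same comparisons, and 10.7%, 4.84%, 3.73% and 2.75% lower. Of 31 S phase genes, 26 were called higher with IL-17A in WT cells. Their median log2 ratio was 1.36, the same as that of the 50 mitotic genes. Against IL-17A WT, the S phase genes mostly moved the same way as the mitotic genes in Il17rc KO, but by less. In Il17rd KO they mostly moved the other way. In IL-17A Il17rc KO over IL-17A WT 0 of the 31 S phase genes were called in either direction, with a median log2 ratio of 0.42. The ratio was above 1 for 27 of the 31, and the interval lay above 1 for 23. In Il17rd KO over IL-17A WT 23 of the 31 had a ratio below 1, the median log2 ratio was -0.25, and the replication licensing gene Cdc6 was called lower, at a log2 ratio of -1.03. Il17rc KO over Il17rd KO gave a median of 0.67 and 1 call, the clamp loader gene Rfc4 at 1.12, and all 31 ratios were above 1. Against untreated WT, 29 of the 31 S phase genes were called higher in Il17rc KO, beside 7.27% of all genes. In Il17rd KO, again against untreated WT, 19 of the 31 were called higher, beside 5.36% of all genes. There all 31 ratios were above 1, with a median log2 ratio of 1.09.

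Of the 16 genes of the anaphase-promoting complex 0 were called in any of these 4 comparisons, with median log2 ratios of 0.37, 0.06, -0.05 and 0.16. The shares of all genes tested were 8.97%, 6.22%, 6.27% and 1.49% called higher and 10.7%, 4.84%, 3.73% and 2.75% called lower. Of 12 cohesin genes only Esco2 (8.33%), a cohesin acetyltransferase, was called, at a log2 ratio of 1.53 in IL-17A WT over untreated WT. Of 25 transcription regulators of the cell cycle, 4 (16%) were called higher and 1 lower with IL-17A in WT cells. Foxm1, an activator of G2 and M genes, had 123.2 CPM in IL-17A Il17rc KO, 65.2 CPM in IL-17A Il17rd KO, 60.4 CPM in IL-17A WT and 27.8 CPM in untreated WT. E2f2 had an order unlike that of the mitotic genes, with 45.3 CPM in IL-17A Il17rc KO, 13.4 CPM in IL-17A Il17rd KO, 3.58 CPM in IL-17A WT and 17.8 CPM in untreated WT. E2f7, a repressor, had a log2 ratio of 2.34 in IL-17A WT over untreated WT.

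**Figure D4:**
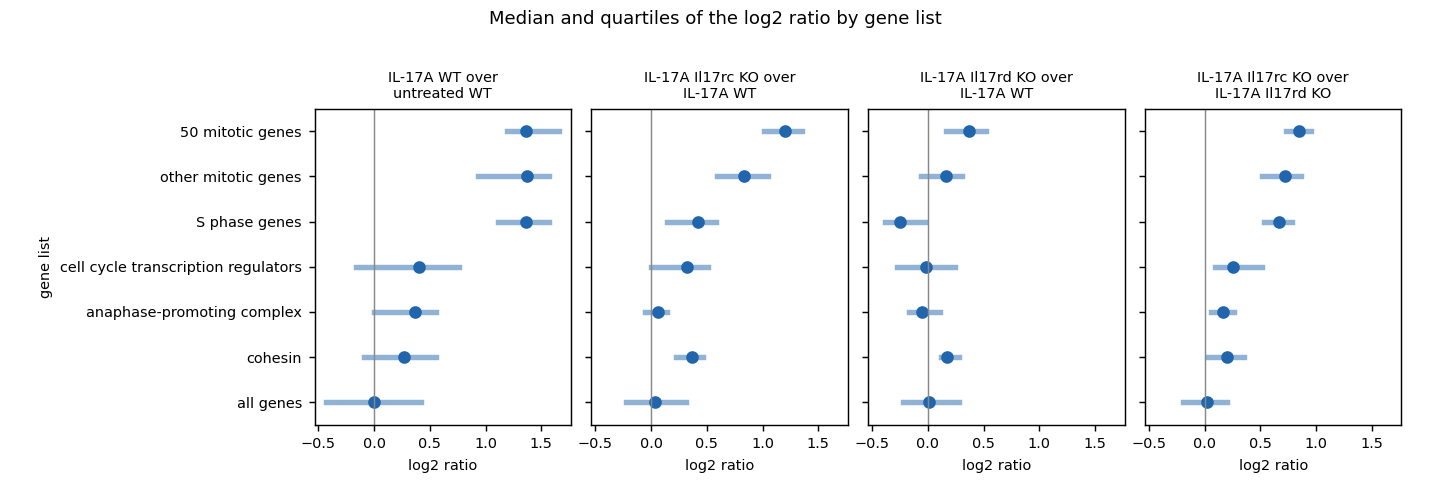
Median (point) and quartiles (bar) of the log2 ratio of 6 gene lists and of all genes tested in 4 comparisons, with 1 library per group. The 50 mitotic genes and the S phase genes share a median of 1.36 in IL-17A WT over untreated WT, and the S phase median is -0.25 in Il17rd KO over IL-17A WT, where that of the mitotic genes is 0.37.

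Markers of cell types moved with the groups as well. Basal keratinocyte markers summed to 29717 CPM in IL-17A Il17rc KO, 31546 CPM in IL-17A Il17rd KO, 29500 CPM in IL-17A WT and 35094 CPM in untreated WT, and 0 of 6 were called in any of the 4 comparisons. Most of the sum is Krt5 and Krt14, at 15403 and 9988 CPM in IL-17A WT, and it hides opposed members. With IL-17A in WT cells Itga6 and Itgb4 had log2 ratios of 0.91 and 0.88, and the other 4 were below 0. Over IL-17A WT, Itga6 and Itgb4 were at -0.82 and -0.68 in Il17rc KO and -0.54 and -0.81 in Il17rd KO. Dsg3 was at 0.82 and 0.62. The 6 markers of differentiated keratinocytes summed to 1349.3 CPM in IL-17A Il17rc KO, 1775 CPM in IL-17A Il17rd KO, 197.4 CPM in IL-17A WT and 4498.3 CPM in untreated WT. Krt1 was the largest part in each KO, at 617.8 CPM in IL-17A Il17rc KO and 1097 CPM in IL-17A Il17rd KO. This sum also hides opposed members. In Il17rc KO over Il17rd KO, 3 ratios were above 1 and 3 below, with a median log2 ratio of 0.1. Of these 6 markers, 5 were called lower with IL-17A in WT cells and 5 called higher in each KO than in IL-17A WT. Of all genes tested, 10.7% were called lower with IL-17A in WT cells. Over IL-17A WT, 6.22% were called higher in Il17rc KO and 6.27% in Il17rd KO. Ivl was the marker not called, at log2 ratios of -0.07, 0.77 and 0.1 in these comparisons. Melanocyte markers (7 genes) ranged from 1592 to 2430 CPM in sum, the 3 immune markers from 4.54 to 51.4 CPM and the 2 endothelial markers from 7.88 to 17.6 CPM. The lowest sum was in IL-17A WT for melanocyte markers and in IL-17A Il17rc KO for immune and endothelial markers. Immune markers were called lower in 3 of 3 in IL-17A Il17rc KO against IL-17A WT, and in 2 of 3 in IL-17A WT against untreated WT. Of all genes tested, 4.84% and 10.7% were called lower in these comparisons. The immune calls rest on few reads. In IL-17A Il17rc KO and IL-17A WT, Laptm5 had 7 and 26 counts, Csf1r 17 and 48, and Lyz2 67 and 396. The 5 fibroblast markers summed to 142 to 214 CPM, most of it from Vim, which is not specific to fibroblasts and was called in none of the 4 comparisons. The other 4 fibroblast markers were all lowest in IL-17A WT. There Col1a1, Col1a2, Col3a1 and Pdgfra were called lower than in untreated WT, at log2 ratios of -3.13, -4.00, -2.95 and -1.65. The 3 collagen genes were called higher in each KO than in IL-17A WT, at log2 ratios of 2.08 to 3.57. Col1a1, the most abundant of them, had 6.38 CPM in IL-17A Il17rc KO, 11.3 CPM in IL-17A Il17rd KO, 1.38 CPM in IL-17A WT and 12.9 CPM in untreated WT. None of the markers measured was at 0 in any library. Dcn, Lum, Ptprc, Cd74, Cd3e and Cdh5 were also on the marker lists but were not among the 13102 genes. The part of these cell types in the mitotic results was not tested.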

How the data were processed

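The deposited counts are whole numbers for each gene, in 1 table per library, with no normalization. The FPKM values deposited by the authors come in the same tables. They were used for levels per length and, as ratios, for an alternative median log2 ratio. The submitters' processing notes name Trim Galore 0.4.4, HISAT2, featureCounts (Subread) and edgeR, with mm10 as the build. Settings, gene annotation and strand handling were not given in the sources used here.

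TMM factors (edgeR 4.0.16, R 4.3.3) scaled the library sizes and were 1.01, 1.04, 0.984 and 0.963 for IL-17A Il17rc KO, IL-17A Il17rd KO, IL-17A WT and untreated WT, over totals of 19711866 to 19904695 counts. Log2 ratios use a prior count of 2, and folds use the counts. Intervals are exact 95% conditional binomial (Clopper-Pearson) intervals for folds and exact Poisson intervals for levels. Without molecular identifiers, reads are not independent molecules, and both kinds of interval cover counting error only. A gene was called at 2-fold or more with an interval excluding 1, among 12934 genes averaging 1 CPM or more. There were 17 symbols turned into dates by a spreadsheet, which are counted but not named. Alternatives were other scalings, filters, folds and priors, and leaving out genes with annotated copies or overlaps.

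Positions, copies and overlaps come from GENCODE M21 (GRCm38, the build mm10) and BLAST+ 2.17.0, and promoters from RefSeq on GRCm38.p6. The members, roles and lists were chosen with earlier results of these data known. Values in all libraries are given by role for the members with the highest and lowest log2 ratio of IL-17A WT over untreated WT and the largest of each KO over IL-17A WT. Ccna2, Ccnb1, Hmmr, Anln and Top2a, among others, were named after their values were seen.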

Additional observations from a re-analysis of the deposited data

How the results depend on the processing

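The median log2 ratio of the 50 genes kept its direction in all 6 comparisons under other scalings, a prior count of 0.5, and without genes with copies or overlaps. It also did so with no filter and with FPKM ratios, but these settings could hardly change it. All 50 genes pass the filter, and the deposited FPKM imply the same relative library sizes as TMM. The median moved most without the overlapping genes, to 1.06 in IL-17A Il17rc KO over IL-17A WT. The counts of called genes moved where the fold required was changed. At 3-fold, 14 of 50 were called in IL-17A WT over untreated WT (3.49% of all genes higher), 4 in IL-17A Il17rc KO over IL-17A WT (2.72%), 0 in IL-17A Il17rd KO over IL-17A WT (3.08%) and 0 in Il17rc KO over Il17rd KO (0.549%). At 1.5-fold, 11 were called in Il17rd KO over IL-17A WT (12.1%) and 44 in Il17rc KO over Il17rd KO (5.27%). With library totals in place of TMM sizes, the counts of these 2 comparisons were 3 and 3 (7.05% and 1.26% of all genes higher). Without the 10 genes that have any annotated copy, 0 of 40 were called in Il17rd KO over IL-17A WT (6.27% of all genes higher), because Cenpa is one of the 10. Leaving out the genes that overlap another annotated gene, an alternative chosen after seeing the data, kept 22 genes. Of these, 20 were called in IL-17A WT over untreated WT, 15 in Il17rc KO over IL-17A WT and 3 in Il17rc KO over Il17rd KO. Against untreated WT, 21 were called in Il17rc KO and 21 in Il17rd KO. In the same order, 8.97%, 6.22%, 1.49%, 7.27% and 5.36% of all genes were called higher. These are counts out of 22 genes in place of 50. All calls that remained were higher. Library totals moved the median of all genes by over 0.1 in Il17rd KO over untreated WT only, to 0.114.

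No paired analysis was possible because each group has 1 library. Depth limits little here, since the lowest count of a mitotic gene was 76. Variation between cultures was not measured.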

Other observations

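Ccnb1-ps, a processed pseudogene of Ccnb1 chosen after its values were seen, had 74 counts in IL-17A Il17rc KO, 44 in IL-17A Il17rd KO, 29 in IL-17A WT and 9 in untreated WT. Ccnb1 itself had 2352, 2322, 1670 and 520 counts in the same order of groups.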
